A study of Mus musculus with 24 samples.

Results

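The genes described here are 10 germline genes that are known to be kept silent in somatic cells by DNA methylation of their promoters: Dazl, Ddx4, Mael, Sycp3, Asz1, Taf7l, Stk31, Dpep3, Brdt and Tdrd1. The 10 genes were chosen with earlier results of these data known. Their probes were taken by name, as every probe whose gene name on the array, or current symbol, was one of the 10. This gave 14 probes of 41174 on the array, and 10 of 27845 gene names. Taf7l, Dazl, Brdt and Tdrd1 had a pair of probes each and the other 6 genes had 1.

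Each of 24 single-colour arrays held RNA from the brain or the liver of newborn female mice. Each tissue had 3 groups with 4 arrays apiece, all of the background given as (C57BL/6 x DBA2) x 129/Sv. NC mice were controls made by ICSI, the injection of a sperm into an oocyte. CC mice were clones made from cumulus cells, the somatic cells around an oocyte. G20 mice were clones of generation 20, from a line of serial cloning that also began with cumulus cells, so that NC mice alone were not clones. The G20 arrays all carry 1 source name and are told apart by a number in their titles, and nothing says that they came from separate litters or donor cells, so that p-values cover only the spread from array to array within a group, part of which may be technical.

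Dazl and Ddx4 encode an RNA-binding protein and an RNA helicase of germ cells, and Mael, Asz1 and Tdrd1 encode proteins of the piRNA pathway, which silences transposons in the germline. Sycp3 encodes a part of the synaptonemal complex, which joins chromosomes in meiosis, Brdt a bromodomain protein of the testis, Taf7l a germ-cell form of a subunit of the basal transcription factor TFIID, Stk31 a kinase-like protein of the testis, and Dpep3 a dipeptidase of the testis. In the early embryo such promoters gain DNA methylation when the embryo implants, and a protein complex that holds MGA, MAX and E2F6 binds many of them and helps to keep them silent. MGA and MAX bind the E box CACGTG, and E2F6 binds TCCCGC. Methylation itself was not measured on these arrays.

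All 10 genes had an entry among the RefSeq mouse promoters (build GRCm38.p6), which were read as windows of 300 bases from 250 before to 50 after the start of the gene. At the first start of each gene the windows held 38 CpG dinucleotides in Ddx4, 29 in Stk31, 28 in Dazl, 24 in Mael, 23 in Brdt, 20 in Tdrd1, 17 in Asz1, 17 in Taf7l, 15 in Sycp3 and 12 in Dpep3. Their median was 21.5, against 7 over 32841 promoters of 27018 genes. All 10 first starts therefore lay above the median of all promoters, and Dpep3 lay closest to it. Stk31 has 2 starts and Tdrd1 has 3. The last Tdrd1 start held 3 CpG dinucleotides, below that median, and no CACGTG. The windows differed in motifs as well. The E box CACGTG, which reads the same on both strands, was in 7 of 10 windows (70%), against 7.15% of all promoters: in Ddx4, Mael, Sycp3, Taf7l, Stk31, Brdt and Tdrd1. TCCCGC, searched on both strands, was in Ddx4, Mael and Sycp3 (30%), against 20.0% of all promoters. CGCG, which can overlap TCCCGC, was in 7 of 10, against 38.0%.

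**Figure D1:**
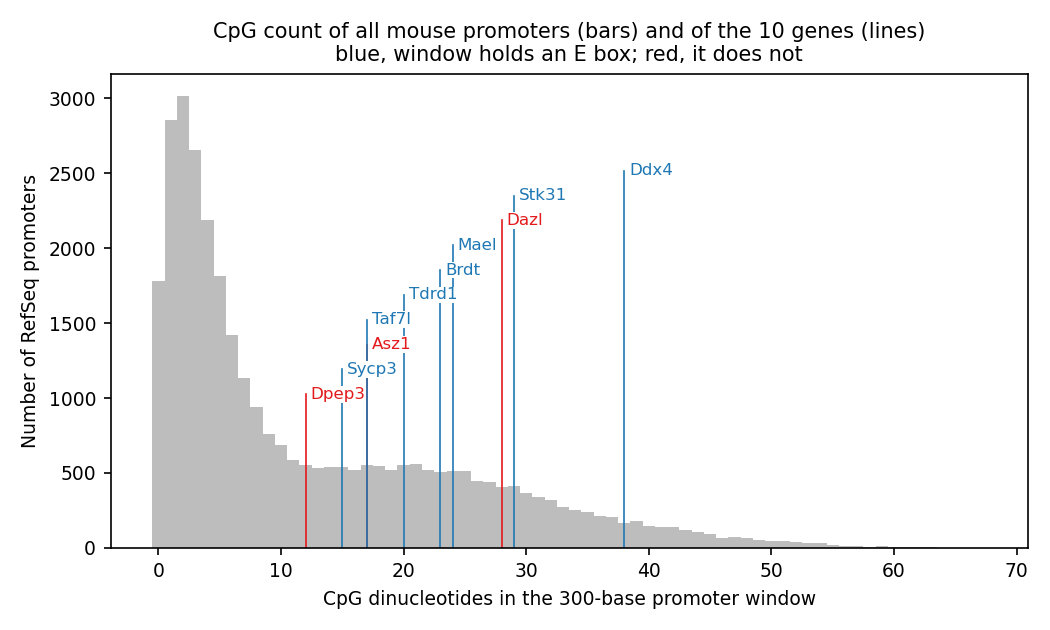
CpG dinucleotides in the 300-base promoter window of all RefSeq mouse promoters (bars, number of promoters) and of the 10 genes at their first start (lines, blue with an E box, red without). The 10 lines lie at 12 to 38 CpG dinucleotides, above the median of 7 of all promoters.

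The 120 bases just before the first start are shown for the 3 genes with an E box whose RNA was measured in brain, Ddx4, Brdt and Tdrd1, for Dazl, which was also measured there and has no CACGTG in its window, and for Sycp3, Taf7l and Stk31, which have an E box near the start and were at background or close to it. Capitals mark CACGTG. The stretches are chr13:112652311-112652430 on the minus strand for Ddx4, chr5:107331074-107331193 on the plus strand for Brdt, chr19:56826089-56826208 on the plus strand for Tdrd1, and chr17:50293621-50293740 on the minus strand for Dazl. Those of Sycp3, Taf7l and Stk31 are chr10:88459467-88459586 (plus), chrX:134476491-134476610 (minus) and chr6:49395419-49395538 (plus), all in GRCm38.p6.
Ddx4: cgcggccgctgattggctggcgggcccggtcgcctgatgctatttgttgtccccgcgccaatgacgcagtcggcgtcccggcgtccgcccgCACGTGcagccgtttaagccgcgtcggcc
Brdt: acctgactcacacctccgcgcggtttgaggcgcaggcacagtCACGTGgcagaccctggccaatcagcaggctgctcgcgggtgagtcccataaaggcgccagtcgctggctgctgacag
Tdrd1: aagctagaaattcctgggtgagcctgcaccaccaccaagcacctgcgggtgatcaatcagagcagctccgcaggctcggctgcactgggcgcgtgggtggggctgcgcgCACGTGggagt
Dazl: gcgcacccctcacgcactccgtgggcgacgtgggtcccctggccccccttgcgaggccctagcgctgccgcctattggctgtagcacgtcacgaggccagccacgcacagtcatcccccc
Sycp3: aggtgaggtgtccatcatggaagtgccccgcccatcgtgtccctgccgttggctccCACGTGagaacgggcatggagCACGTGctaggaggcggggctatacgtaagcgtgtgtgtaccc
Taf7l: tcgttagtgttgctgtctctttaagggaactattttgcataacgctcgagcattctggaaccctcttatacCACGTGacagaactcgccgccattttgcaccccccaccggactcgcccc
Stk31: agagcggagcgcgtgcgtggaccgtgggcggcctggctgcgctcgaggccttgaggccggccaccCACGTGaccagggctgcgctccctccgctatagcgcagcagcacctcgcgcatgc
Counted back from the start, the E box began at -11 in Tdrd1, -29 in Ddx4, -49 in Taf7l, -55 in Stk31, -78 in Brdt and -223 in Mael, and Sycp3 had a pair at -64 and -43. The E box was thus within the shown stretch in 6 of the 7 genes that had one. A match is a run of letters and was not tested for binding.

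The tissues could be told apart by their markers: 16 of 16 neuron and glia genes were well above background on all 4 arrays of each brain group, and 14 of 14 hepatocyte genes on all 4 arrays of each liver group. Each group of each tissue was on a slide of its own, so that slide and group cannot be told apart. The NC and G20 arrays of a tissue were scanned in 1 session, and the CC arrays of both tissues in another, 221 days after the first, so that wherever CC is compared, session and group cannot be told apart. The CC arrays were also dimmer: in brain the 75th percentile of the signal was 402.6 to 466.8 scanner units in CC, 814.3 to 937.3 in NC and 723.9 to 864.3 in G20, and in liver it was 241.6 to 270.0, 275.9 to 340.8 and 440.5 to 561.2. A larger share of all probes was well above background in brain, 62.4% to 70.6% of probes over the 12 arrays, than in liver, 53.5% to 62.9%.

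Most of the 14 probes were dim. Per array, 6.75 ± 1.26 probes (SD, n = 4) were well above background in NC brain, 4.75 ± 0.50 in CC brain and 6 on each array of G20 brain. In liver the numbers were 1.75 ± 0.50 in NC, 2 ± 1.41 in CC and 3 on each array of G20. These are 48.2%, 33.9% and 42.9% of the 14 probes in brain and 12.5%, 14.3% and 21.4% in liver, below the share of all probes in each group.

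By gene, the counts fell into 3 sets. Brdt and Ddx4 were well above background in both tissues: the Brdt probe A_51_P258125 on 23 of 24 arrays, the Ddx4 probe on 21 and the Brdt probe A_52_P70787 on 19, each on 12 of 12 brain arrays. Tdrd1 and Dazl were so in brain alone. The Tdrd1 probe A_52_P48218 was well above background on 12 of 12 brain arrays and 0 of 12 liver arrays. Of the Dazl probes, A_52_P271166 was so on 11 of 12 brain arrays, all but 1 CC array, and A_51_P246060 on 7, of which 3 were NC, 4 G20 and 0 CC. Both were so on 0 of 12 liver arrays. Mael and Sycp3 were well above background only in NC brain, on 2 arrays each, replicates 2 and 3 for Mael and replicates 2 and 4 for Sycp3. Probes of Brdt, Ddx4, Tdrd1 and Dazl thus gave signal in brain of the ICSI controls as well as of the clones. For the other genes, too little signal for the flag does not show silencing by methylation, which was not measured.

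Asz1, Taf7l, Stk31 and Dpep3, with the other Tdrd1 probe, A_51_P478238, made up 6 probes that were not well above background on any of the 24 arrays. Their signals ran from 2.81 to 17.3 scanner units, and 125 of their 144 values were surrogates, which the scanner software writes for spots it cannot tell from background and which have no order. The highest of these signals was that of Stk31 in NC brain, which read 7.21, 11.8, 17.3 and 13.1 on the 4 arrays. Of the 4 values of a group, those of Stk31 held 1 surrogate in NC brain and 0 in G20 brain, and those of A_51_P478238 held 0 in G20 brain. No array of a clone group was well above background for any of the 4 genes. The lowest signal of any probe well above background was 3.99 to 8.93, depending on the array, and none of the 14 probes was saturated or marked as an outlier on any array. RNA of these genes therefore did not reach the limit of well above background, which for bulk tissue does not show that every cell lacked it.

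**Figure D2:**
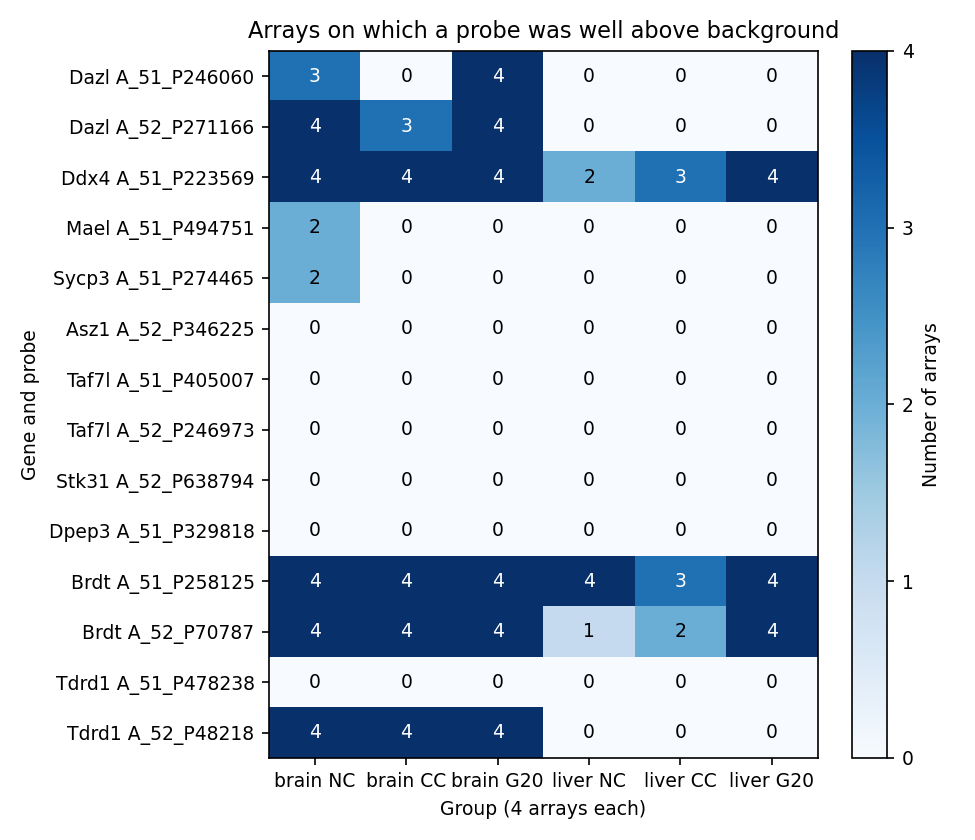
Number of arrays, of 4 in each group, on which each of the 14 probes was well above background. Brdt, Ddx4, 1 Tdrd1 probe and the Dazl probes fill the brain columns in part or whole, and 6 probes are at 0 in every group.

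**Figure D3:**
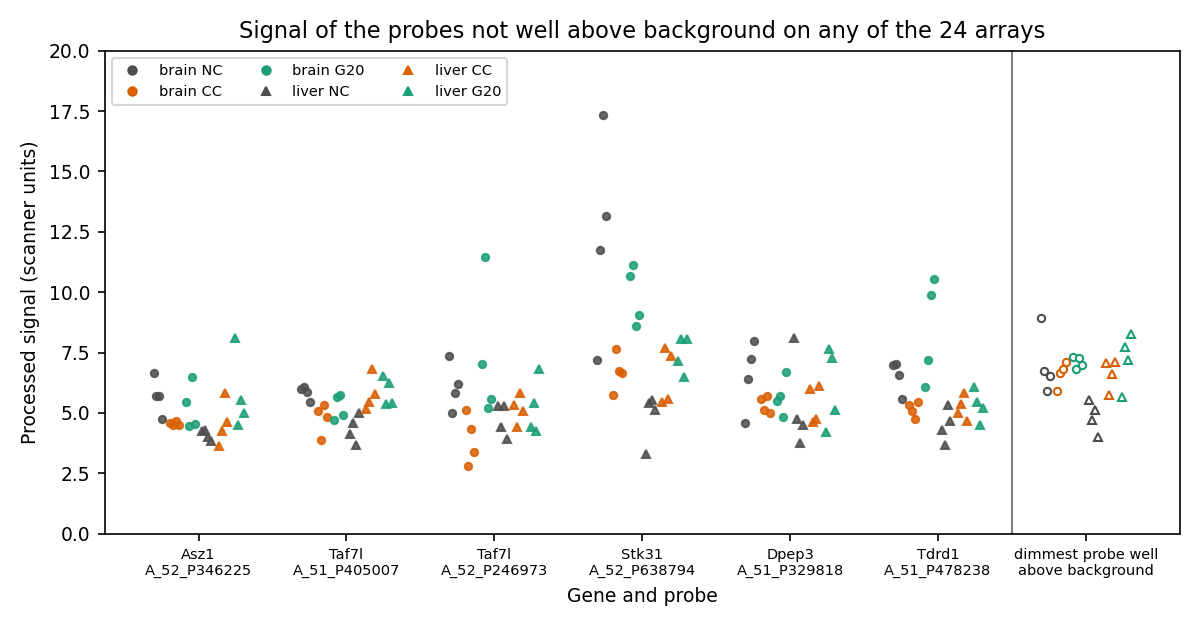
Processed signal in scanner units, on a linear axis, of the 6 probes that were not well above background on any array, with 1 point for each of the 24 arrays. The points lie between 2.81 and 17.3 units.

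Mael and Sycp3 lay at the edge of detection. The Mael probe (mm8 chr1:168038127-168038186) read 8.79, 26.6, 14.6 and 8.04 scanner units on the 4 NC brain arrays, and between 3.02 and 7.90 on the 20 other arrays. The Sycp3 probe (mm8 chr10:87899402-87902492) read 7.88, 17.1, 15.4 and 16.8 in NC brain, 17.8, 12.9, 8.97 and 10.9 in G20 brain, 4.43 to 6.45 in CC brain and 2.88 to 11.1 in liver. NC brain replicates 2 and 3 thus lay above all other arrays for Mael, while those of Sycp3 overlapped G20 brain. Neither gene entered the tests, which for each tissue took the probes that 1 group or more had well above background on 4 of 4 arrays.

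That filter kept 6 probes of 4 genes in brain (both Dazl probes, Ddx4, both Brdt probes and 1 Tdrd1 probe) and 3 probes of 2 genes in liver (Ddx4 and both Brdt probes), and left 8 probes and 6 genes untested in both. The Dazl probe A_51_P246060 in brain, and Ddx4 and the Brdt probe A_52_P70787 in liver, passed only through the G20 group. Levels below are log2 of the processed signal minus the 75th percentile of the same array, so that 0 is that percentile itself, and differences are in log2 units with the standard error of the limma fit. In bulk tissue a lower level from fewer cells cannot be told apart from less RNA per cell. Some values are also given after normexp, a background correction from a model of signal and noise with an offset of 50 scanner units. Normexp alone stands for its fit on the median background of each array, and local normexp for its fit on the background around each spot, which put the background mean at -492 to -33.1 on 7 of 24 arrays, far below 0.

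Tdrd1 encodes a Tudor-domain protein that binds PIWI proteins in germ-cell granules. Its probe A_52_P48218 (mm8 chr19:56923160-56923219, plus strand) had levels of -2.11, -1.54, -1.29 and -1.43 on the NC brain arrays. They were -1.28, -1.50, -1.21 and -1.02 in CC brain and -1.17, -0.85, -1.19 and -1.01 in G20 brain. All 4 G20 arrays lay above all 4 NC arrays, and CC overlapped both. In scanner units the signal was 213, 323, 358 and 303 in NC, 166, 156, 181 and 230 in CC, and 383, 403, 365 and 368 in G20. On all 12 liver arrays the probe held surrogates, with signals of 3.96 to 6.27. The other Tdrd1 probe, A_51_P478238, which the annotation gives to another transcript, lies 3719 bases away (mm8 chr19:56919230-56919711). It read 3.68 to 10.5 on all 24 arrays and was not well above background in brain either. The pair of Tdrd1 probes therefore disagreed on whether the gene was measured in brain. From which of the 3 Tdrd1 starts the RNA in brain came was not tested.

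Ddx4, the vasa helicase, was measured by 1 probe (mm8 chr13:113719286-113719345, minus strand). Its levels in brain were -3.43, -3.43, -3.99 and -3.47 in NC, -3.13, -3.10, -2.83 and -3.01 in CC, and -2.96, -2.88, -3.17 and -3.14 in G20. All 8 clone arrays lay above all 4 NC arrays, and the clone groups overlapped each other. In liver the levels were -4.27, -4.38, -5.30 and -4.42 in NC, -4.32, -4.06, -3.99 and -3.74 in CC, and -3.96, -4.46, -4.31 and -4.77 in G20. All 3 liver groups overlapped. The probe was well above background on 2 NC, 3 CC and 4 G20 liver arrays. Its signals over all 12 liver arrays, detected or not, were 8.63 to 31.3, close to the limit of detection.

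Dazl, which encodes an RNA-binding translational regulator of germ cells, was at the dim end of what could be measured. Probe A_52_P271166 (mm8 chr17:49745165-49745224, minus strand) had brain levels of -4.95, -5.24, -4.95 and -5.27 in NC, -4.66, -5.23, -4.80 and -4.59 in CC, and -4.49, -4.86, -4.60 and -5.05 in G20. Probe A_51_P246060 (mm8 chr17:49753199-49753345) had brain levels of -6.70, -5.57, -5.63 and -5.75 in NC, -5.66, -5.65, -5.06 and -5.43 in CC, and -5.39, -5.88, -5.90 and -5.72 in G20. The 3 groups overlapped on both probes. Signals were 11.7 to 38.4 on the first and 7.94 to 20.6 on the second in brain, and 2.69 to 7.78 in liver, where all values were surrogates.

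Brdt encodes a testis-specific reader of acetylated histones. Its probes lie 8357 bases apart on the plus strand, A_51_P258125 at mm8 chr5:107618223-107618282 and A_52_P70787 at mm8 chr5:107626580-107626639. The first had brain levels of -1.63, -1.69, -1.66 and -1.83 in NC, -2.97, -2.66, -2.47 and -2.48 in CC, and -1.66, -1.95, -1.94 and -1.65 in G20. All 4 CC arrays lay below the other 8. The second had brain levels of -1.38, -1.03, -1.14 and -1.29 in NC, -1.23, -1.29, -1.66 and -1.33 in CC, and -1.34, -0.94, -1.13 and -1.26 in G20. Here the 3 groups overlapped, so that the pair of Brdt probes disagreed on CC brain.

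In liver, the Brdt probe A_51_P258125 had levels of -4.02, -4.11, -3.93 and -3.98 in NC, -4.53, -3.92, -4.05 and -3.76 in CC, and -3.73, -3.71, -3.95 and -4.04 in G20. The probe A_52_P70787 had liver levels of -5.34, -4.44, -4.64 and -4.99 in NC, -4.76, -3.90, -4.30 and -3.82 in CC, and -4.59, -4.54, -4.19 and -4.36 in G20. The liver groups overlapped on both. The exon or UTR in which these probes lie was not analysed here, since no annotation of mm8 was used.

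**Figure D4:**
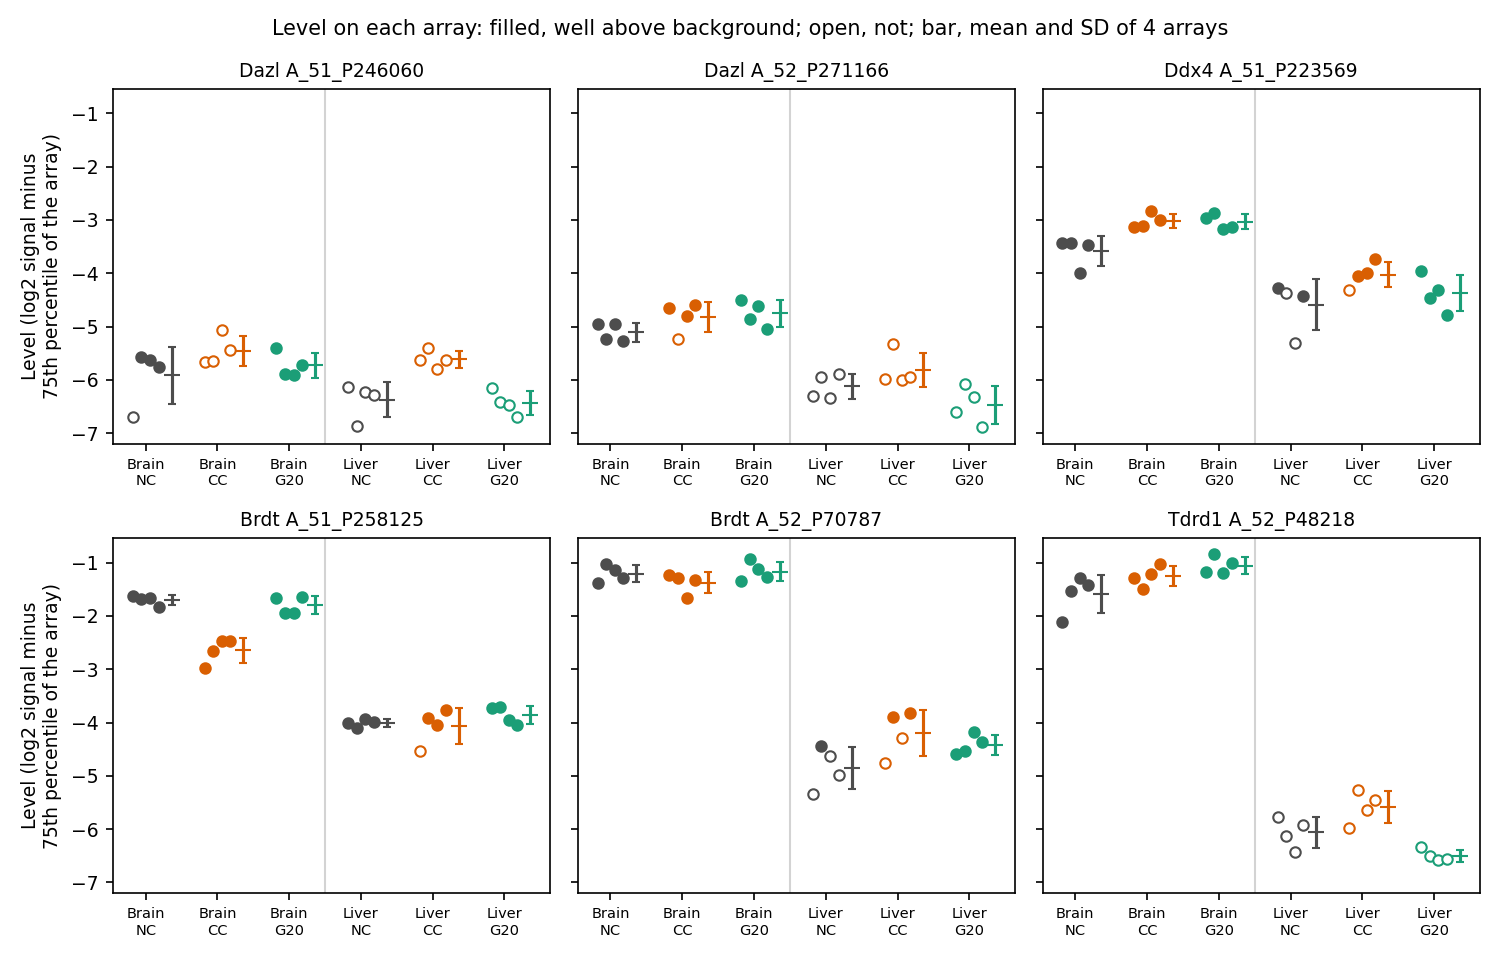
Level on each array (log2 signal minus the 75th percentile of the array) of the member probes in the 6 groups of 4 arrays, filled where the probe was well above background and open where it was not; bars show the mean and SD. Ddx4 and Tdrd1 lie higher in G20 than in NC brain on every array, and the Brdt probe A_51_P258125 lies lower in CC brain than in NC and G20 brain.

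The comparison of G20 with NC asks whether faults of reprogramming had built up after serial cloning. In brain, none of the 6 probes passed limma's test at an adjusted p under 0.05, against 1.42% of all 27811 probes tested, and 3 of 6 had an unadjusted p under 0.05, against 18.4% of all probes. Ddx4 was 0.54 ± 0.13 higher in G20 (1.46-fold, higher on 4 of 4 arrays, limma adjusted p = 0.0652), and Tdrd1 0.54 ± 0.16 higher (1.45-fold, 4 of 4, limma adjusted p = 0.130). Of the 6 probes these 2 had groups that did not overlap, against 11.5% of all probes. The Ddx4 difference ran from 0.34 to 0.72 over the other ways of processing and passed the test under 1 of 24, normexp (limma adjusted p = 0.0425). The Dazl probes differed by 0.35 ± 0.16 (limma adjusted p = 0.259) and 0.19 ± 0.23 (limma adjusted p = 0.699), the latter with the sign turned, -0.07, without NC replicate 1. The Brdt probes were at -0.10 ± 0.12 and 0.04 ± 0.12 (limma adjusted p = 0.698 and 0.882), the first at 0.10 with local normexp. The median difference over the 6 probes was 0.27, against 0.02 over all probes tested.

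In CC brain the comparison with NC called far more probes over the whole array, 68.3%, with 35.2% higher and 33.1% lower of probes, so that a call was common. Of the 6 probes 2 passed, 1 in each direction, and these were also the 2 whose groups did not overlap, against 62.8% of all probes. The number that passed was 5 of 6 with the array median as scale and with normexp, 4 of 6 with quantile normalization and 3 of 6 with the percentile over detected probes, and 0 of 6 with local normexp. Tdrd1 and both Dazl probes passed under some of these, higher in CC. Ddx4 rose by 0.56 ± 0.13 (1.48-fold, 4 of 4 arrays, limma adjusted p = 0.00224). With the deposited series matrix in place of the scanner values the Ddx4 difference was 0.20 and did not pass (limma adjusted p = 0.294), nor did it with local normexp (1.12, limma adjusted p = 0.0868). The Brdt probe A_51_P258125 fell by 0.94 on the log2 scale, with a standard error of 0.12 (1.92-fold lower, 4 of 4 arrays, limma adjusted p = 2.11e-05). It kept this call in 22 of 23 other settings, at -1.10 to -0.42, and lost it with local normexp (-0.04, limma adjusted p = 0.920). The other Brdt probe differed by -0.17 ± 0.12 (limma adjusted p = 0.232), and by 0.07 with normexp and 0.32 with local normexp. With the percentile over detected probes it differed by -0.33 and passed, lower in CC (limma adjusted p = 0.0252). Tdrd1 was at 0.34 ± 0.16 (limma adjusted p = 0.0849), and the Dazl probes by 0.28 ± 0.16 and 0.46 ± 0.23 (limma adjusted p = 0.130 and 0.0977).

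Between the clone groups in brain, 1 of the 6 probes passed, against 66.8% of all probes, and its groups were the only ones of the 6 that did not overlap, against 58.9% of all probes. This was the Brdt probe A_51_P258125, 0.85 ± 0.12 higher in G20 (1.80-fold, 4 of 4 arrays, limma adjusted p = 5.66e-05), and 0.15 with local normexp, where it did not pass (limma adjusted p = 0.781). With normexp 4 of 6 passed, among them both Dazl probes, lower in G20 (-0.50 for A_52_P271166 and -0.69 for A_51_P246060). The latter was well above background on 4 of 4 G20 and 0 of 4 CC arrays. Tdrd1 was at 0.20 ± 0.16 (limma adjusted p = 0.303), or -0.03 with local normexp, and the second Brdt probe by 0.21 ± 0.12 (limma adjusted p = 0.142), or -0.04 with normexp and -0.11 with local normexp. With the percentile over detected probes the second Brdt probe was 0.36 higher in G20 and passed (limma adjusted p = 0.0163). Ddx4 differed by -0.02 ± 0.13 (limma adjusted p = 0.920), but by -0.35 with normexp, where it passed, and by 0.31 with the deposited matrix, where it did not. For the Dazl probes the differences were 0.07 ± 0.16 and -0.27 ± 0.23 (limma adjusted p = 0.705 and 0.318). The comparisons of CC with NC and of G20 with NC share the NC arrays.

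Markers of the brain itself and of other cells moved with these groups. Of 16 neuron and glia genes tested, 5 rose and 9 fell in CC against NC brain (median -0.26). In G20 against NC 0 of these genes passed limma's test, and 2 had an unadjusted p under 0.05, against 18.4% of all probes. The summed level of a list is given as multiples of the 75th percentile of the array. Of 12 erythroid genes the sum was 81.2 to 175.2 in NC brain, 150.8 to 240.2 in CC and 198.4 to 216.5 in G20. All 6 erythroid genes tested in G20 against NC had an unadjusted p under 0.05, against 18.4% of all probes. Their median difference was 1.08, and 0 passed limma's test after adjustment. Rhag, Gata1, Spna1 and Epb4.2 were not well above background on any NC or CC brain array. In CC against NC brain 2 of the 6 erythroid genes tested rose and 0 fell. Of 14 hepatocyte genes the sum was 2.0 to 2.57 in NC, 1.70 to 4.85 in CC and 0.831 to 2.30 in G20. Of 8 tested in CC against NC brain 5 rose and 1 fell (median 1.07), Alb by 1.74, Afp by 1.88, Ahsg by 2.23 and Fgb by 2.33, each with the opposite sign in the deposited matrix. Apoa1, Apob and Fga were not well above background in any brain group. Their part in the results was not tested.

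In liver no probe passed in G20 against NC (0 of 3 with an unadjusted p under 0.05 in limma's test, against 23.3% of all probes, while 6.58% of all probes were called). Ddx4 differed by 0.22 ± 0.23 (limma adjusted p = 0.622), and by -0.02 without NC replicate 3. The Brdt probes differed by 0.15 ± 0.15 and 0.43 ± 0.23 (limma adjusted p = 0.585 and 0.279), for A_51_P258125 and A_52_P70787. With normexp all 3 probes passed and were lower in G20, Ddx4 at -0.36 and the Brdt probes at -0.31 and -0.34 (limma adjusted p = 0.0132, 0.0111 and 0.00796), as they also were with local normexp (-1.54, -1.38 and -1.53, limma adjusted p = 0.0273 for each).

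In CC liver against NC, 1 of 3 probes passed, against 39.3% of all probes, and 0 of 3 had groups that did not overlap, against 37.5% of all probes. The Brdt probe A_52_P70787 rose by 0.66 ± 0.23 (1.58-fold, limma adjusted p = 0.0377), on 1 of 4 NC and 2 of 4 CC arrays well above background. It kept its call in 14 of 21 other settings. Among the settings where it did not pass were those without CC replicates 2, 3 or 4 and without NC replicates 1 or 4. Nor did it pass with local normexp, where the difference was -0.42. The other Brdt probe differed by -0.05 ± 0.15 (limma adjusted p = 0.796), or by 0.14 with normexp, and Ddx4 by 0.57 ± 0.23 (limma adjusted p = 0.0733), or by -0.19 with the deposited matrix and -0.45 with local normexp. With normexp 2 of 3 passed, Ddx4 and A_52_P70787, both higher in CC. Between G20 and CC liver 0 of 3 passed in limma's test, while 43.3% of all probes were called. Of the 3, 0 had an unadjusted p under 0.05, against 51.7% of all probes. Ddx4 differed by -0.35 ± 0.23, and the Brdt probes by 0.21 ± 0.15 and -0.22 ± 0.23 (limma adjusted p = 0.246, 0.285 and 0.448). With normexp all 3 passed and were lower in G20, at -0.63, -0.45 and -0.62. In the same livers 10 of 14 hepatocyte genes tested and 7 of 12 erythroid genes fell in CC against NC, with summed hepatocyte levels of 3091 to 3559 in NC, 1333 to 2093 in CC and 3137 to 3850 in G20, and their part in the Brdt result was not tested.

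**Figure D5:**
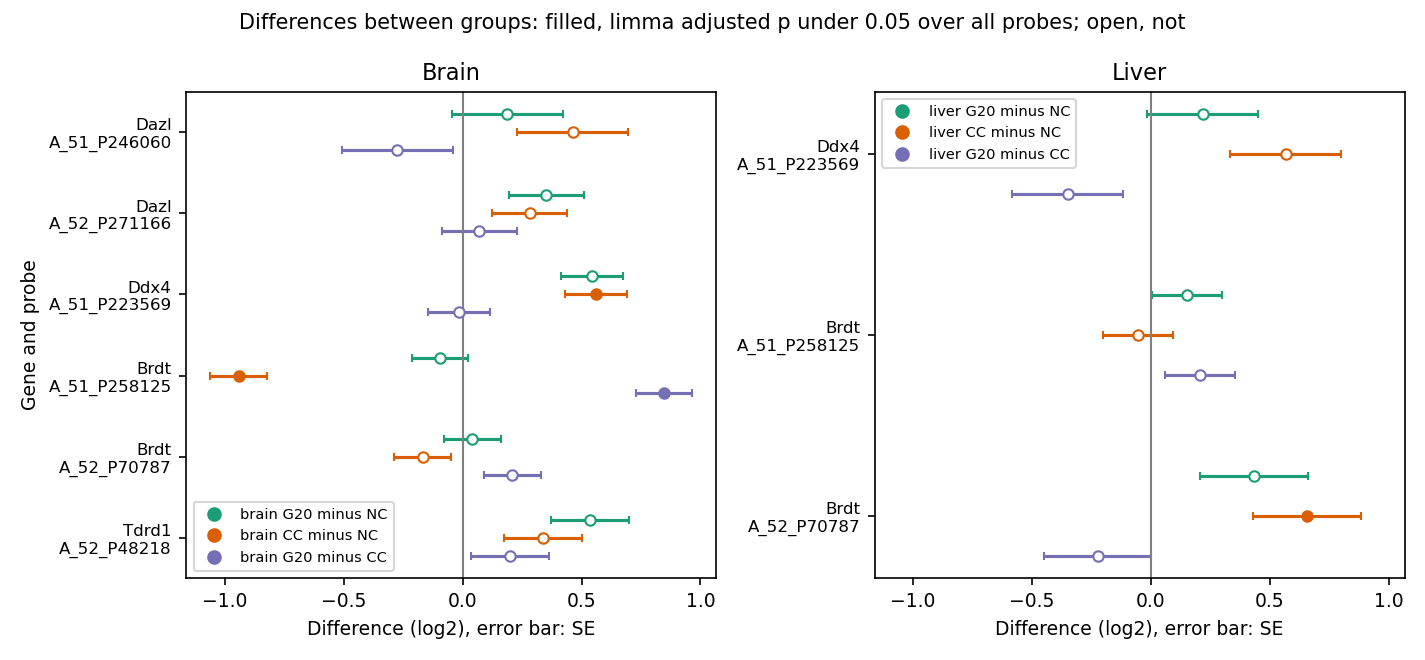
Differences between groups in log2 units with standard errors, for the member probes tested in brain (left) and liver (right), filled where limma's adjusted p over all probes was under 0.05. In brain the Brdt probe A_51_P258125 stands apart in both comparisons that involve CC, and Ddx4 is filled for CC against NC.

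Between tissues, Tdrd1 and Brdt were higher in brain than in liver in each group, and so were Ddx4 and Dazl with the processing used here, though the sign turned under normexp for Ddx4 in NC and CC and for Dazl in each group, and under local normexp in NC for all 4 genes and in CC for Ddx4 and Dazl. Tdrd1 had the largest gap of the 6 probes and was not well above background on any liver array (limma adjusted p = 1.95e-16, 4.46e-16 and 6.07e-18 in NC, CC and G20). Its brain mean was 20.5-fold, 16.1-fold and 33.3-fold a liver floor. That floor averages, over the liver arrays, the lowest level of any probe well above background, or the probe's own level where higher. It is not the limit of detection of each probe. On NC liver replicate 2 the lowest such signal was 4.69 scanner units, yet Ddx4 at 15.0 was not well above background. The folds over the floor are therefore not lower bounds. All 6 probes passed in NC, 5 in CC and 6 in G20, against 87.6%, 82.7% and 88% of all probes in either direction and 45.4%, 40.9% and 45.2% higher in brain. Tdrd1 and both Dazl probes entered this test through brain alone, so that their direction was in part fixed by the filter and the number that passed is a description.

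The Brdt probe A_52_P70787 was 12.5-fold higher in brain in NC, 7.05-fold in CC and 9.52-fold in G20 (3.64 ± 0.19, 2.82 ± 0.19 and 3.25 ± 0.19 in log2 units). The probe A_51_P258125 was 4.95-fold, 2.68-fold and 4.17-fold higher. Tdrd1 and both Brdt probes kept direction and call in 29 of 30 other settings in NC. In CC both Brdt probes did so in 29 of 30 and Tdrd1 in 30 of 30, and in G20 all 3 in 30 of 30, with normexp differences of 1.33, 1.43 and 2.26 for Tdrd1 in NC, CC and G20. The exception was local normexp, with -0.01 for Tdrd1 and -0.29 and -0.19 for Brdt in NC, and 0.10 and 0.55 for Brdt in CC, none of which passed. These 3 probes were higher on all 4 brain arrays than on all 4 liver arrays of each group, where 84.5%, 77.8% and 84.3% of all probes did not overlap in NC, CC and G20.

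Ddx4 was 1.01 ± 0.20 higher in brain in NC, 1.01 ± 0.20 in CC and 1.34 ± 0.20 in G20 (limma adjusted p = 6.83e-05, 8.30e-05 and 1.85e-06), but under normexp the differences were -0.53, -0.12 and 0.16. The brain mean of the Dazl probe A_52_P271166 was 1.75-fold its liver floor in NC, 1.37-fold in CC and 2.60-fold in G20 (limma adjusted p = 3.76e-05, 5.65e-05 and 2.04e-08). Under normexp its differences turned to -0.83, -0.34 and -0.24. The brain mean of the Dazl probe A_51_P246060 was 1.06-fold its liver floor in NC and 1.27-fold in G20 (limma adjusted p = 0.0491 and 0.00398). This probe was not well above background in either tissue in CC, and under normexp its differences were -1.0, -0.44 and -0.51. In NC its call was lost in 20 of 30 other settings and its sign turned in 2. The normexp offset is larger than the whole signal of Dazl, and the direction for Ddx4 and Dazl is not settled by level. For Dazl the detection counts do not settle it either, since brain arrays were brighter. The 75th percentile was 814.3 to 937.3 scanner units in NC brain and 275.9 to 340.8 in NC liver. Brain and liver of CC were scanned in 1 session, and those of NC and G20 49 days apart. The part of session and slide in the tissue differences was not tested.

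The difference between tissues in the effect of cloning was tested for the 3 probes kept in both. For CC against NC both Brdt probes passed, A_51_P258125 at -0.89 ± 0.19 (brain effect minus liver effect, limma adjusted p = 0.000596) and A_52_P70787 at -0.82 ± 0.26 (limma adjusted p = 0.0124), against 53.3% of all probes. The effects themselves were -0.94 in brain and -0.05 in liver for the first probe, and -0.17 and 0.66 for the second. The second did not pass under normexp (-0.22, limma adjusted p = 0.141), and under local normexp they were 0.39 and 0.74 and did not pass. Ddx4 differed by -0.01 ± 0.28 (limma adjusted p = 0.988), or 0.41 with normexp. For G20 against NC 0 of 3 passed in limma's test, against 3.33% of all probes, and 0 had an unadjusted p under 0.05, against 18.6%. With normexp 2 of 3 passed, Ddx4 and the second Brdt probe.

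Other genes of the same kinds were followed through lists chosen for their roles. Of 16 other genes of the piRNA pathway 14 were on the array and 10 were tested in brain, of 21 meiotic genes 18 and 10, and of 25 further germline or placenta genes with methylated promoters 20 and 6. In G20 against NC brain none of the genes tested from these 3 lists passed limma's test, against 1.42% of all probes. In each list 1 gene had an unadjusted p under 0.05, against 18.4% of all probes. The medians of the lists were 0.22, 0.09 and 0.04. In liver none of the 4 piRNA, 6 meiotic and 6 further genes tested passed in limma's test of G20 against NC, while with normexp 1, 3 and 3 passed, all lower. The piRNA genes Piwil2 and Mov10l1, which encode a PIWI protein and a helicase, and the meiotic genes Sycp1, Hormad1 and Tex11 were not well above background on any array of either tissue.

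In CC against NC brain, 4 of 10 piRNA genes rose and 1 fell, where 35.2% of all probes rose and 33.1% fell. With normexp 10 rose, and with local normexp 1. Piwil4, which encodes a nuclear PIWI protein, rose by 1.5 ± 0.16, Tdrd7 by 0.91 ± 0.10, Tdrd12 by 0.89 ± 0.33 and Tdrkh by 0.42 ± 0.08 (limma adjusted p = 7.19e-06, 6.83e-06, 0.0287 and 0.000382). Nanos3, the 1 called lower, was well above background on 0 of 4 CC arrays and had the opposite sign under both normexp corrections. Of the meiotic genes 3 of 10 rose and 1 fell: Rec8, a meiotic cohesin, rose by 1.93 ± 0.41 (limma adjusted p = 0.00122), with Syce2 and Mei1, and Tex15 fell. Of the further germline genes 4 of 6 rose and 1 fell, with Rhox5 up by 1.09 ± 0.07 (limma adjusted p = 2.94e-07) and Fthl17 well above background on 4 of 4 CC arrays and 0 of 4 NC arrays. Piwil4 and Fthl17 entered the brain tests through the CC group alone, so that their direction was in part fixed by the filter. The sign turned with the deposited matrix for Piwil4 (-0.33), Rec8 (-0.44), Tdrkh (-0.20), Syce2 (-0.20) and Rhox5 (-0.16), and with it no gene of these 3 lists rose, so the direction in CC rests on the scanner values.

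The factors that silence such promoters were mostly measured: 24 of 27 listed genes were tested in each tissue. In G20 against NC brain Mga fell by 0.48 with a standard error of 0.11 (limma adjusted p = 0.0491) and Ehmt1, a histone H3 lysine methyltransferase, rose by 0.36 ± 0.08 (limma adjusted p = 0.0431), and the other 22 did not pass. Mga lay at -0.51 to -0.45 over 6 other scalings and background corrections and passed in 4, and Ehmt1 passed in 2. In CC against NC brain 7 of 24 rose and 9 fell, against 35.2% and 33.1% of all probes. Dnmt3a, a de novo DNA methyltransferase, fell by 1.08, the histone methyltransferase gene Setdb1 by 1.36 and the deacetylase gene Hdac2 by 2.06, while Max rose by 0.93 ± 0.08, L3mbtl2 by 0.93 ± 0.09 and Ehmt1 by 0.92 ± 0.08. The falls of Dnmt3a and Setdb1 passed under all 6, and Max and L3mbtl2 had the opposite sign with the deposited matrix (-0.17 and -0.14). In liver none of 24 passed in G20 against NC in limma's test, against 6.58% of all probes (with normexp 1 rose and 4 fell). Of the 24, 2 had an unadjusted p under 0.05, against 23.3% of all probes. In CC against NC liver 3 rose and 6 fell, where 39.3% of all probes passed in either direction. Rnf2 moved by 0.85 ± 0.10 upward (-0.11 with the deposited matrix) and Ring1 by 0.97 downward (0.01 with it).

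Genes of the oocyte were looked at as markers of germ cells. Of 15 on the array, Zp1, Nobox, Figla, Nlrp5 and Nlrp14 were not well above background in any group of either tissue, while Gdf9, Npm2 and Kit were so on all arrays of both, and H1foo on all brain arrays. In G20 against NC brain 0 of the 5 tested passed in limma's test, with 0 at an unadjusted p under 0.05, against 18.4% of all probes. In CC against NC brain Gdf9 rose by 0.94 ± 0.11 (limma adjusted p = 1.09e-05), with the opposite sign in the deposited matrix (-0.14). Zp3 passed too, well above background on 0 of 4 NC, 2 of 4 CC and 4 of 4 G20 brain arrays. In G20 against NC liver Gdf9 fell by 0.51 (limma adjusted p = 0.0339) and did so in 6 of 6 other scalings and background corrections. Their part in the results for Ddx4 and Tdrd1 was not tested.

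The genes whose level followed a member most closely over the 12 brain arrays were, by Pearson's r and among the genes well above background on all of them, Tprkb (0.93), Cbwd1 (0.91) and Fbxl20 (0.91) for Ddx4, and Plvap (0.89), Arid3a (0.89) and Gnb4 (0.85) for Tdrd1. For the Brdt probe A_51_P258125 they were Bag4, Rictor and Zmym2, all at 0.99, and for A_52_P70787 Pla2g7 (0.95), Slc39a12 (0.92) and Tmem229a (0.91). The probes of Brdt shared none of their 3 nearest genes. The 12 arrays share the gap between CC and the other groups, and these correlations are descriptions.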

How the data were processed

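The values are processed signals, intensities in scanner units, which Agilent Feature Extraction 9.5.3.1 wrote for each spot per the file headers. It subtracted background, removed spatial trends, put surrogates in place of very low values and did not normalize between arrays. Flags (well above background, saturated, outlier) are other values, 0 or 1, from the same deposited files. Per the labels' protocols, total RNA was amplified and labelled with Cy3. The deposited series matrix holds linear intensities of 34140 probes. Its NC and G20 columns were close to the processed signal times 1 factor per array (SD of the log2 ratio over probes 0.0103 to 0.0554), and those of CC held 1 more factor that varied by probe (SD 0.627 to 0.657) and whose origin the sources do not state. It was used as an alternative only, and 0 of its columns were left unused.

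Spots marked as outliers were removed, spots of a probe averaged, and the deposited intensities put on a log2 scale minus the 75th percentile of 43379 spots other than controls. Probes were kept in a tissue if 1 group or more had them well above background on 4 of 4 arrays (27811 in brain, 24085 in liver). Linear models over the 12 arrays of a tissue, or over 24 for comparisons of tissues (30031 probes) and of effects between tissues (21865), were fitted with limma 3.58.1 in R 4.3.3 (package data.table, version 1.17.8), tested on simulated data, with Benjamini-Hochberg adjustment over all probes and a call at 0.05. Sequences and figures used Python 3.11.15, pandas 2.3.3, numpy 2.4.6 and matplotlib 3.10.9. Replicates of a group correlated at 0.968 to 0.995 over probes and no arrays were identical.

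Every probe of the 10 genes was named, called or not, as were at most 6 genes of each list and comparison with the smallest adjusted p among those called, and the 3 genes nearest in pattern to a probe. Genes named for being undetected fall outside this rule and were chosen after their values were seen. The members and lists were chosen with earlier results of these data known. Of 23374 probes the name came from the accession in the file, and 17800 kept the name in the file. For list genes the kept probe with the highest mean was used. Same-numbered arrays of different groups of a tissue did not deviate together (r of -0.178 to 0.130), so the number was not taken as a pairing. Brain and liver of NC and of CC with the same number carry the same animal name, with r of 0.038 to 0.302 and 0.168 to 0.228, and a fit with the animal as a random block was an alternative. Other alternatives changed the scale, normalization, filter, probes, samples and background correction (normexp on local background, as planned, and on the array median, added after the data were seen).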

Additional observations from a re-analysis of the deposited data

Results flagged for a closer look

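Among 28 groups of 4 values tested for an array apart from the others, of which chance would mark about 1 in 20, 3 were marked. The Dazl probe A_51_P246060 read -6.70 on NC brain replicate 1, below the other 3 NC arrays, and that spot was not well above background. Ddx4 read -3.99 on NC brain replicate 3 and -5.30 on NC liver replicate 3, in each case below the other 3 NC arrays of the tissue, and both arrays carry the same animal name. Without NC liver replicate 3 the Ddx4 difference between G20 and NC liver was -0.02 in place of 0.22.

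The effect of CC against NC differed between brain and liver for both Brdt probes, by -0.89 for A_51_P258125 and by -0.82 for A_52_P70787, tested as the difference of differences with limma (adjusted p = 0.000596 and 0.0124, with 4 arrays in each group). With normexp on local background, whose fit failed on 7 of 24 arrays, the sign turned (0.39 and 0.74) and neither passed. In this test 53.3% of all probes passed, and CC and NC arrays were scanned in different sessions.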

How the results depend on the processing

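Of the values of the 6 probes tested, of 4 genes, under all alternatives, 1206 kept direction and side of the threshold, 20 newly passed, 38 no longer passed and 74 changed sign. The other 6 genes were not tested. The Brdt probe A_51_P258125 in CC brain and the Tdrd1 and Brdt tissue differences kept direction and call in every alternative but normexp on local background. Signals of most member probes lay near background, which limits what levels can show. The cause of the changes given here was not tested.

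With normexp on the array median background, chosen after seeing the data, signs turned for brain minus liver in NC (Dazl -1.0 and -0.83, Ddx4 -0.53), in CC (Dazl -0.44 and -0.34, Ddx4 -0.12) and in G20 (Dazl -0.51 and -0.24). They also turned for the effect in brain minus liver of CC (Ddx4 0.41) and G20 (Brdt 0.26 and 0.37), for CC against NC in brain (Brdt A_52_P70787 0.068) and liver (Brdt A_51_P258125 0.14), for G20 against CC in brain (the same Brdt probe as in CC brain -0.038, Dazl A_52_P271166 -0.50) and liver (Brdt A_51_P258125 -0.45), and for G20 against NC in liver (Brdt -0.31 and -0.34, Ddx4 -0.36). With the array median as scale they turned for Dazl A_51_P246060 in CC brain minus liver (-0.20), Ddx4 in the CC effect between tissues (0.042), Dazl A_52_P271166 in G20 against CC brain (-0.083) and Brdt A_51_P258125 in CC against NC liver (0.018). Quantile normalization gave 0.093, -0.094 and 0.020 for the last 3. The 75th percentile over probes detected on all arrays gave Ddx4 0.14 in G20 against CC brain. The deposited matrix gave Ddx4 0.31 there, -0.19 in CC against NC liver and 0.20 in G20 against CC liver, and Brdt A_51_P258125 0.055 in CC against NC liver.

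Leaving out 1 array at a time gave Ddx4 -0.14 to 0.23 for the CC effect between tissues (highest without NC liver replicate 3), -0.069 to 0.047 in G20 against CC brain and -0.020 to 0.35 in G20 against NC liver. It gave Dazl A_52_P271166 -0.065 to 0.17 in G20 against CC brain, Dazl A_51_P246060 -0.074 to 0.30 and Brdt A_52_P70787 -0.035 to 0.10 in G20 against NC brain, and Brdt A_51_P258125 -0.16 to 0.10 in CC against NC liver. Over all probes, 396 were called in G20 against NC brain, 193 to 601 with 1 array left out (fewest without G20 replicate 1, most without G20 replicate 3, and 202 to 224 without G20 replicates 2 or 4 or NC replicates 1 or 2). In G20 against NC liver 1585 were called, 793 to 1862 with 1 array left out (793 to 865 without G20 replicates 2 or 4 or NC replicates 1 or 2), and in the G20 effect between tissues 728, 466 to 889 (466 to 479 without brain G20 replicate 1, brain NC replicates 2 or 3 or liver NC replicate 1).

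Without the filter on dim probes the calls were 231 in G20 against NC brain, 29344 in CC against NC brain (main value 18982), 28590 in G20 against CC brain (18588), 14244 in CC against NC liver (9472), 21035 in G20 against CC liver (10426), 17497 in the CC effect between tissues (11644) and 1271 in that of G20. With the deposited matrix they were 5557 in CC against NC brain, 6129 in G20 against CC brain, 3559 in CC against NC liver, 2756 in G20 against NC liver and 0 in G20 against CC liver by limma, where 11154 had an unadjusted p under 0.05. With normexp they were 692 in G20 against NC brain, 7605 in G20 against NC liver and 4033 in the G20 effect between tissues. Using 1 probe per gene gave 12357 in G20 against CC brain, and only the 2 groups compared gave 213 in G20 against NC brain. The share of higher among called probes in CC against NC brain was 51.5%, 60.2% with the array median, 39.6% with the percentile over detected probes, 71.6% with normexp and 1.69% with the deposited matrix, and the median of all probes there shifted to 0.14, -0.14, 0.27 and -0.17.

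With the replicate number as a block, 223 probes were called in G20 against NC brain and 1027 in G20 against NC liver, and with the animal as a random block 1255 in the G20 effect between tissues. The block changed no call of a member probe. Under another flag of detection, positive and significant against background, the member probes per array were 10.75 in NC, 7.75 in CC and 11.75 in G20 brain, and 3.75, 3.5 and 3.25 in liver. 

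Normexp on local background, planned from the start, gave a fitted background mean of -492 to -33.1 on 7 of 24 arrays and -0.47 to 6.71 on the other 17, so its values rest on failed fits. The values whose sign it turned were, in NC brain minus liver, Dazl -2.34 and -2.11, Ddx4 -1.64, Tdrd1 -0.010, Brdt -0.29 and -0.19; in CC brain minus liver, Dazl -0.35 and -0.24 and Ddx4 -0.073; and in the effect between tissues, Brdt 0.39 and 0.74 and Ddx4 1.57 for CC, Brdt 1.49 and 1.74 for G20. In brain they were Brdt A_52_P70787 0.32 in CC against NC, Brdt A_51_P258125 0.10 in G20 against NC, and Brdt A_52_P70787 -0.11, Dazl A_52_P271166 -0.56 and Tdrd1 -0.034 in G20 against CC. In liver they were Ddx4 -0.45 and Brdt A_52_P70787 -0.42 in CC against NC, Brdt A_51_P258125 -0.96 in G20 against CC, and Ddx4 -1.54 and Brdt -1.38 and -1.53 in G20 against NC. It called 2 probes in G20 against NC brain, 6544 in CC against NC brain, 4494 in G20 against CC brain, 9163, 238 and 2680 in the same comparisons in liver, 12633 in CC and 16709 in G20 brain minus liver, and 2127 and 114 in the effects of CC and G20 between tissues. Of the probes called in CC against NC brain 61.0% were higher, with a median of all probes of 0.42.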
